A study of Mus musculus with 6 samples.

Results

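Heme and iron handling was followed in activated mouse B cells through 10 genes out of the 39017 in the count table. Hmox1, Blvra and Blvrb break down heme. Ftl1 and Fth1 form the iron store, Tfrc and Slc11a2 bring iron in, Slc40a1 exports it, and Ireb2 and Aco1 sense it. The set was chosen by known role and with values of the Control against Prmt1-null comparison in view, in which Hmox1 and Ftl1 had stood out, and each gene was found in the table by its symbol. Their genotype differences are therefore given as a description. The p-values of these differences are not printed, but the text says which genes passed a threshold on the adjusted p. As the genes were picked with this comparison in view, passing it is no independent support. The cells were induced germinal center B cells (iGBs) grown from the spleens of 6 C57BL6/J mice, 3 Cg1-cre mice (Control) and 3 Cg1-cre Prmt1f/f mice (Prmt1-null), with 2 females and 1 male in each group. All 6 mice carried Cg1-cre, which is active once a B cell is activated and transcribes the IgG1 constant region, so Prmt1 is deleted during the response and not before it. All cultures received CD40L and BAFF from 40LB feeder cells, a fibroblast line that makes both, and IL-4 at 5 ng/ml in the labels (the methods give a lower concentration), and the RNA was taken at day 3.5 after removal of the feeders. The ages of the mice were not given in the sources used here.

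Heme is a source of iron and a signal. Heme oxygenase opens the heme ring and yields biliverdin, carbon monoxide and iron, biliverdin reductase turns biliverdin into bilirubin, and the freed iron is stored in a shell of ferritin light (Ftl1) and heavy (Fth1) chains or leaves the cell through ferroportin (Slc40a1). In B cells heme also binds the repressors Bach1 and Bach2. Bach1 represses Hmox1, and Bach2 holds back plasma cell (PC) differentiation. The iron regulatory proteins IRP1 (from Aco1) and IRP2 (from Ireb2) bind a short RNA hairpin, the iron-responsive element, when iron is scarce. In a 5′ UTR this blocks translation, and in a 3′ UTR it stabilizes the mRNA, so ferritin mRNA does not give the amount of ferritin protein, while Tfrc mRNA is itself under control of the hairpins.

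Of the 10 genes, 4 held a match to this hairpin in a UTR. The search was not used to pick the genes. They were picked by known role, though, and control through this hairpin is part of what is known of iron genes. The search covered the UTRs of the protein-coding transcripts of GENCODE M21 (build mm10), on the transcribed strand, for a C, 5 bases, the loop CAGTGN and 5 bases pairing with the first 5, with at most 1 G-T pair. Of 21901 protein-coding genes, 18 (0.0822%) held a match in a 5′ UTR and 51 (0.233%) in a 3′ UTR. These shares describe all genes and are no measure of enrichment, as the 10 were picked for roles in heme and iron handling. The matches are shown because they are the shared sequence of these 4 genes. They are written 5′ to 3′ as 30 bases of mRNA in DNA letters, with the loop in capitals. Fth1 held its match in the 5′ UTR at chr19:9982732-9982761 on the plus strand, Ftl1 in the 5′ UTR at chr7:45459778-45459807 on the minus strand and Slc40a1 in the 5′ UTR at chr1:45925464-45925493 on the minus strand. Tfrc held 4 matches in its 3′ UTR on the plus strand, at chr16:32631219-32631248, chr16:32631598-32631627, chr16:32631663-32631692 and chr16:32631710-32631739.
Fth1: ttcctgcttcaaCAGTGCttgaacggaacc
Ftl1: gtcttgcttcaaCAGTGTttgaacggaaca
Slc40a1: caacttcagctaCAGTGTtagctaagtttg
Tfrc element 1: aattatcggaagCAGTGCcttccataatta
Tfrc element 2: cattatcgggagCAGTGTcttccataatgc
Tfrc element 3: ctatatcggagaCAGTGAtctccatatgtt
Tfrc element 4: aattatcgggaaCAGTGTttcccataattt

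Both ferritin genes carry nearly the same hairpin, and the 4 hairpins of Tfrc lie in the same UTR. A match is a run of letters and not a measured binding site. A gene without a match can still hold a hairpin that departs from this strict form. Among related heme and iron genes described further on, Alas2 held a match in the 5′ UTR and Bola3 one in the 3′ UTR.

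The libraries held 45343250 to 62774232 counted reads each. Prmt1, the targeted gene, stood at 3924 to 4838 (Control) against 1477 to 1745 (Prmt1-null) normalized counts. The Prmt1-null mean was 36.9% of the Control mean (log2 fold −1.44, adjusted p = 1.11e-05, edgeR), so the libraries followed their labels and some Prmt1 mRNA was still counted. A normalized count is the raw count scaled by edgeR's TMM method to a common library size. The summed level of 7 B cell markers was 10300 to 11800 CPM (counts per 1000000 counted reads) in Control and 11400 to 11800 CPM in Prmt1-null iGBs. These are bulk cultures, in which fewer cells of a type and less RNA per cell cannot be told apart.

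A gene was counted as past the threshold at an adjusted p under 0.05 (quasi-likelihood test of edgeR, adjusted by Benjamini-Hochberg over 18268 genes) and a mean normalized count over 100, which 1.18% of all genes tested met in either direction and 0.58% with a higher level in Prmt1-null iGBs. The log2 difference is the log2 of Prmt1-null over Control as edgeR fits it, and SE is its standard error. Of the 10 genes, 9 had enough counts to be tested, and 2 of these, Hmox1 and Ftl1, were past it, both higher in Prmt1-null iGBs. The groups did not overlap for 3 of the 9, Hmox1, Ftl1 and Tfrc, all higher in Prmt1-null iGBs, where 19.9% of all genes did not overlap and 9.95% did so with the higher level in Prmt1-null iGBs. In all, 8 of the 9 had a positive and 1 a negative log2 difference, with a median of 0.14 against −0.00082 for all genes tested. As the genes were picked with this comparison known, nothing follows from these counts about the pathway as a whole.

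**Figure D1:**
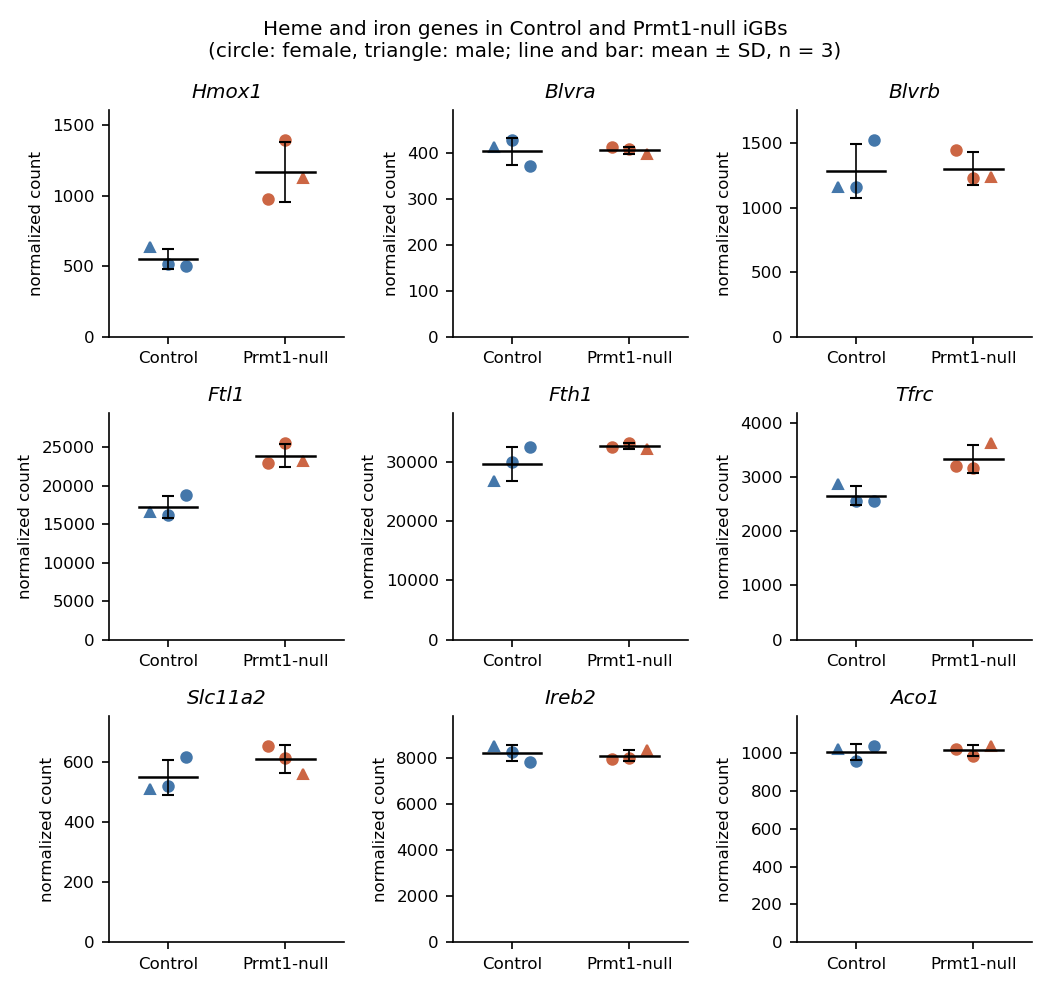
Normalized counts (vertical axes, from 0) of the 9 genes tested in the 3 Control and 3 Prmt1-null libraries; circles are females, triangles males, and the line and bar are the mean ± SD. The Prmt1-null libraries lie above all Control libraries for Hmox1 (979.1 to 1396 against 502.4 to 634.2), Ftl1 and Tfrc, and the groups overlap for the other genes.

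Hmox1 (ENSMUSG00000005413, chromosome 8, 75093621 to 75100589, plus strand), the inducible heme oxygenase, showed the largest difference among the 9 genes. Control replicates 1, 2 and 3 had 634.2, 516.2 and 502.4 normalized counts, against 979.1, 1396 and 1126 for the Prmt1-null replicates in the same order, which is kept for the genes below. Every Prmt1-null library lay above every Control library, and the highest was Prmt1-null replicate 2. The means were 551 ± 72.4 and 1167 ± 211 (SD, n = 3 each), a 2.12-fold difference or a log2 difference of 1.08 (SE 0.144). By log2 difference it stood 7th among the 106 genes past the threshold in this direction. No exon of another annotated gene overlaps it.

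Hmox2, the heme oxygenase that cells make constitutively, stood at 4527 ± 236 (Control) against 4766 ± 89.2 (Prmt1-null) normalized counts, a log2 difference of 0.07 (SE 0.0603, adjusted p = 0.651, edgeR). Its exons overlap Cdip1 on the opposite strand. Per length of exon, the level of Hmox1 was 0.188, 0.142 and 0.135 of that of Hmox2 in Control, against 0.255, 0.376 and 0.301 of it without Prmt1. Hmox2 was thus the more abundant heme oxygenase mRNA in all 6 libraries, and the share of Hmox1 was higher in each Prmt1-null library than in any Control library.

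The biliverdin reductases, which act after heme oxygenase, stayed close between the groups. Blvra (ENSMUSG00000001999, chromosome 2, 127070665 to 127097084) stood at 411.9, 428.4 and 371.3 (Control) against 412.1, 407.5 and 397 (Prmt1-null) normalized counts, a log2 difference of 0.01 (SE 0.132). All 3 Prmt1-null libraries fell inside the Control range. Blvrb (ENSMUSG00000040466, chromosome 7, 27447978 to 27466144) stood at 1160, 1162 and 1526 (Control) against 1448, 1227 and 1235 (Prmt1-null) normalized counts, a log2 difference of 0.02 (SE 0.122). Control replicate 3 was its highest library, and the other Control libraries were its lowest.

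Hmox1 is abundant in splenic macrophages, so macrophage markers were read beside it, although naive B cells had been purified from the spleen before culture, by removal of CD43+ cells or with a B cell isolation kit. Of 12 such markers, 4 (C1qa, C1qb, Mertk and Marco) had 0 counts in all 6 libraries. The summed level of the list was 37.5 to 41.7 CPM in Control and 38.9 to 45.5 CPM in Prmt1-null iGBs. Most of this sum was Cd68, at 26.2 to 30.5 CPM in Control and 23.9 to 29.9 CPM in Prmt1-null iGBs, so it says little about the other markers. Of the 7 markers with enough counts to be tested 1, Adgre1 (F4/80), was past the threshold (log2 difference 0.73, adjusted p = 0.0319, edgeR). Adgre1 stood at 5.45 to 7.27 CPM in Control and 10 to 12 CPM in Prmt1-null iGBs. Among the other tested markers, Csf1r, Spic, Cd5l and Vcam1 had a positive and Cd68 and Lyz2 a negative log2 difference. The summed level of 5 PC markers was 966 to 1090 CPM in Control and 1110 to 1200 CPM in Prmt1-null iGBs, without overlap. Of the 5, 0 were past the threshold in edgeR, 2 had an unadjusted p under 0.05, and DESeq2 placed 1 past it. The smallest adjusted p was that of Xbp1, a driver of the secretory program, at 334 to 343 CPM in Control and 370 to 437 CPM in Prmt1-null iGBs (log2 difference 0.29, adjusted p = 0.0571, edgeR). The groups overlapped for the other 4, Prdm1, Sdc1, Irf4 and Jchain, and Jchain, the joining chain of secreted IgM and IgA, had a log2 difference of −0.09. Feeder fibroblast markers, 10 genes, summed to 28.3 to 32.7 CPM in Control and 31 to 39.9 CPM in Prmt1-null iGBs. The part of Adgre1 and of the PC and feeder markers in the Hmox1 difference was not tested.

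Ftl1 (ENSMUSG00000050708, chromosome 7, 45457944 to 45459884, minus strand), the ferritin light chain, was the other gene past the threshold. The Control replicates had 16530, 16260 and 18850 normalized counts, against 22970, 25600 and 23200 for the Prmt1-null replicates. The groups did not overlap, with means of 17210 ± 1420 and 23920 ± 1460 (SD, n = 3 each), a 1.39-fold difference or a log2 difference of 0.48 (SE 0.0728). It was no longer past the threshold when Control replicate 2 or Prmt1-null replicate 2 was left out, with log2 differences of 0.435 and 0.429.

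Ferritin genes have near-identical copies, and the authors kept reads that aligned to at most 2 places, so the counts of Ftl1 and its copies are uncertain. Ftl1-ps1 (listed as Gm10116) stood at 3264 ± 414 (Control) against 4646 ± 545 (Prmt1-null) normalized counts, a log2 difference of 0.51 (SE 0.0958). Ftl2-ps (listed as Ftl2) and Ftl1-ps2 (listed as Gm20746) showed log2 differences of 0.30 (SE 0.101) and 0.11 (SE 0.118). Reads that align to both a copy and Ftl1 cannot be told apart here, and their share was not measured. With all copies summed into their parent gene the log2 difference of Ftl1 was 0.45. The exons of Ftl1 also overlap Gm22133 on the same strand and Gm10252 on the opposite strand.

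Fth1 (ENSMUSG00000024661, chromosome 19, 9980598 to 9985098, plus strand), the ferritin heavy chain, which oxidizes iron as it enters the shell, differed less. The Control replicates had 26770, 29950 and 32480 normalized counts, against 32620, 33270 and 32230 for the Prmt1-null replicates. The Prmt1-null libraries lay close together, replicates 1 and 2 above the highest Control library and replicate 3 just below it, so the groups overlapped. The log2 difference was 0.14 (SE 0.0721). Its copy Fth-ps2 stood at only 98.1 ± 17.7 (Control) against 123.9 ± 2.6 (Prmt1-null) normalized counts.

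The balance of the ferritin chains was read as a ratio within each library, which does not depend on the scaling between libraries. The level of Fth1 per length of exon was 0.626, 0.712 and 0.666 of that of Ftl1 in Control, against 0.548, 0.502 and 0.537 of it without Prmt1. The ratio was lower in every Prmt1-null library than in any Control library, with means of 0.529 ± 0.024 and 0.668 ± 0.043 (SD, n = 3 each). The sum of both chains was 364 to 421 CPM per kb of exon in Control and 472 to 512 in Prmt1-null iGBs. Both chains together took 0.0786% to 0.0923% of the counted reads in Control and 0.0988% to 0.105% in Prmt1-null iGBs.

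**Figure D2:**
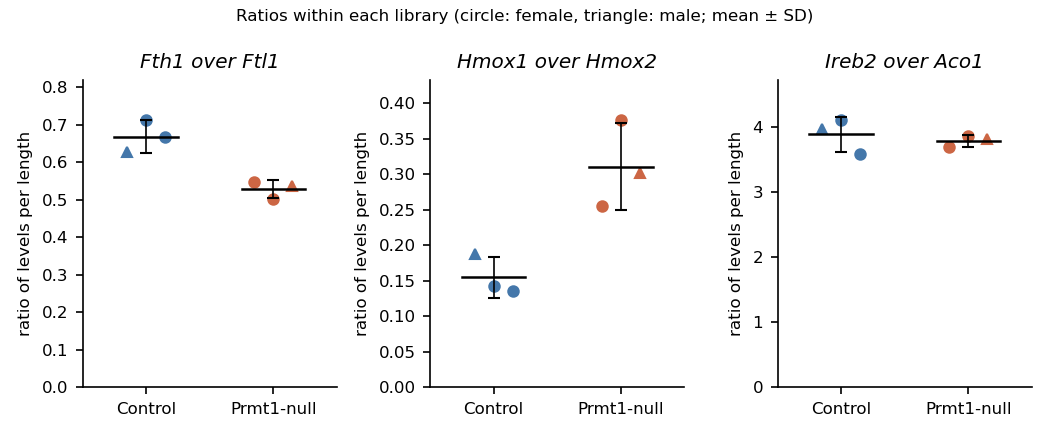
Ratios of levels per length of exon (vertical axes, from 0) of Fth1 over Ftl1, Hmox1 over Hmox2 and Ireb2 over Aco1 within each library; circles are females, triangles males, and the line and bar are the mean ± SD. The first ratio is lower (0.502 to 0.548 against 0.626 to 0.712) and the second higher in every Prmt1-null library, and the third overlaps between the groups.

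Tfrc (ENSMUSG00000022797, chromosome 16, 32608920 to 32632794, plus strand), the transferrin receptor and main route of iron uptake in dividing cells, stood at 2866, 2562 and 2554 (Control) against 3216, 3171 and 3638 (Prmt1-null) normalized counts. The groups did not overlap, and within each group the male library was the highest. The means were 2661 ± 178 and 3342 ± 258 (SD, n = 3 each), a 1.26-fold difference or a log2 difference of 0.33 (SE 0.0767). It was not past the threshold in the fit of all 6 libraries, and it was past it with DESeq2's Wald test, with sex as a covariate, with no filter on low counts and when Control replicate 1 was left out.

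Slc11a2 (DMT1, ENSMUSG00000023030, chromosome 15, 100387898 to 100425072, minus strand) moves iron out of endosomes after uptake. It stood at 510.3, 518.9 and 615.9 (Control) against 653.1, 613 and 559.6 (Prmt1-null) normalized counts, with overlap and a log2 difference of 0.15 (SE 0.127). Its exons overlap Gm5475 on the opposite strand, and the strand setting of the counting is not given in the sources used here.

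Slc40a1 (ENSMUSG00000025993, chromosome 1, 45908068 to 45926523, minus strand), ferroportin, the only known iron exporter of mammalian cells, was next to absent from the counts. The Control replicates had 0, 14 and 2 raw counts and the 3 Prmt1-null replicates 0 each. A count of 0 there allows a level of up to 0.0494 to 0.054 CPM (3 counts), a limit that covers counting error only. It was not tested. Control replicate 2, the library with 14 counts, also had the highest summed level of 6 granulocyte markers, at 10.6 CPM against 0 to 3.72 CPM in the other 5 libraries, and their part in the count was not tested.

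The iron sensors were level between the groups. Ireb2 (IRP2, ENSMUSG00000032293, chromosome 9, 54863789 to 54912530) stood at 8518, 8250 and 7822 (Control) against 7919, 7979 and 8343 (Prmt1-null) normalized counts, a log2 difference of −0.02 (SE 0.0586). Aco1 (IRP1, ENSMUSG00000028405, chromosome 4, 40143081 to 40198338), which works as a cytosolic aconitase when it holds an iron-sulfur cluster, stood at 1019, 955.2 and 1036 (Control) against 1020, 981.8 and 1038 (Prmt1-null) normalized counts, a log2 difference of 0.01 (SE 0.099). All Prmt1-null libraries of Ireb2 lay within the Control range, and so did those of Aco1 except replicate 3, just above it. Per length of exon, Ireb2 was 3.58 to 4.1 times as abundant as Aco1 in Control and 3.68 to 3.86 times in Prmt1-null iGBs.

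Levels between genes were compared per length, as CPM per kb of merged exon (all annotated exons of a gene joined). Ftl1 was highest at 276 ± 51 (SD over 6 libraries), ahead of Fth1 at 162 ± 12 and Ireb2 at 15.5 ± 0.66. Hmox1 (8.83 ± 3.7), Tfrc (8.75 ± 1.2) and Blvrb (8.37 ± 0.96) followed, and their libraries overlapped, so their order is not settled. Aco1 (4.04 ± 0.14), Blvra (2.98 ± 0.15) and Slc11a2 (1.64 ± 0.15) came below them, each above the next in every library, and Slc40a1 was last at 0.00486. In Control alone Hmox1 (5.16 to 6.57) lay below Tfrc (7.42 to 8.41), and in Prmt1-null iGBs it ran from 9.93 to 14.2 against 9.15 to 10.7 for Tfrc. With the longest transcript in place of the merged exons, Blvrb rose to 4th place by its mean over all 6 libraries (14 to 18.2). It lay above Tfrc in every library, its range overlapped that of Hmox1 (5.76 to 15.9), and Aco1 and Blvra overlapped. By that length Fth1 stood at 0.61 to 0.865 of Ftl1. In raw counts Fth1 exceeded Ftl1, 1.62 to 1.84 times in Control and 1.3 to 1.42 times in Prmt1-null iGBs. The order of the ferritin chains thus rests on the division by length.

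**Figure D3:**
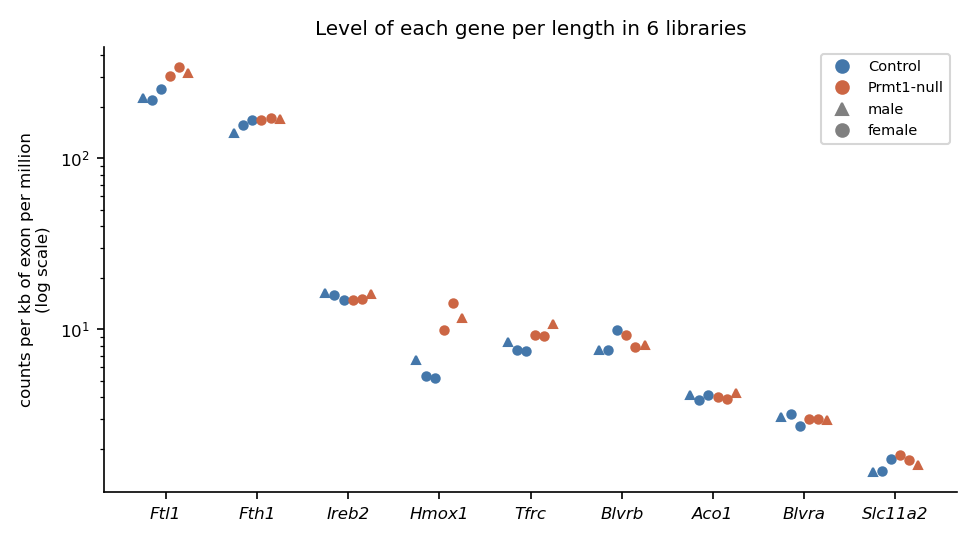
Level of 9 genes in CPM per kb of merged exon (vertical axis, log scale) in each of the 6 libraries, ordered by mean; blue is Control, orange Prmt1-null, triangles are males and circles females. The ferritin chains lie above 100, Ireb2 near 15.5, and the Hmox1 points of the groups stand apart. Slc40a1, at 0 in 4 libraries, is not drawn.

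The sex of the mice, given in the labels and not used to pick the genes, was tested beside the genotype in a fit of both. Of the 9 genes, 0 were past the threshold for sex (edgeR), where 0.0657% of all genes were, 1 had an unadjusted p under 0.05, where 6.92% of all genes had one, and DESeq2 placed 0 past the threshold. A count of 1 in 9 is near that background. The gene was Tfrc, with a mean of 3252 normalized counts in the 2 males and 2876 in the 4 females, a log2 difference of 0.18 (male minus female, SE 0.0675, adjusted p = 0.648, edgeR). A difference of the genotype effect between the sexes had an adjusted p under 0.05 for 0 and an unadjusted p under 0.05 for 0 of the 9 genes (edgeR interaction term), where 0.153% of all genes were past the threshold. This term rests on 1 male library per genotype, and a count of 0 in 9 is no sign that the sexes respond alike. The log2 ratio of Prmt1-null to Control for Hmox1 was 0.83 in the males (1 library each) and 1.22 in the females (2 libraries each), and for Ftl1 it was 0.49 and 0.47.

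A list of 91 other heme and iron genes, written from their known roles, shows what surrounds these genes. Of these, 83 had enough counts, and with adjustment over all genes 0 were past the threshold in either direction (edgeR). At an unadjusted p under 0.05 there were 8 of the 83 (9.64%), 5 higher and 3 lower in Prmt1-null iGBs, where 13.5% of all genes tested had such a p. The groups did not overlap for 19 of the 83 (22.9%), close to the 19.9% of all genes. With DESeq2's Wald test 4 of them (Slc48a1, Flvcr1, Nfe2l2 and Bach2) passed, and with sex as a covariate or without Control replicate 3, 2 did (Slc48a1 and Flvcr1). The median log2 difference of the 83 was −0.01.

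Among 11 tested genes of heme transport and breakdown, 5 had a positive and 6 a negative log2 difference. Slc48a1 (HRG1), which carries heme out of endosomes and lysosomes into the cytosol, stood at 1500 to 1642 (Control) against 1928 to 2142 (Prmt1-null) normalized counts, a log2 difference of 0.37 (SE 0.0841, adjusted p = 0.0523, edgeR). Flvcr1, described as a heme exporter and listed in the table as Mfsd7b, stood at 8455 to 9470 (Control) against 6999 to 7822 (Prmt1-null), a log2 difference of −0.27 (SE 0.0648, adjusted p = 0.0692, edgeR). The groups overlapped for neither, and both missed the threshold. The median log2 difference of the 11 genes was −0.0031, so Slc48a1 and Flvcr1 do not stand for the list. Abcb6, a porphyrin transporter, had a log2 difference of 0.42 (SE 0.188, adjusted p = 0.348, edgeR) and shares exon bases with Gm29253 on the same strand. The exons of Slc48a1 overlap Hdac7, and those of Flvcr1 overlap A230020J21Rik, on the opposite strand.

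Of the 10 genes that respond to heme or oxidative stress, 3 had a positive and 7 a negative log2 difference. Nfe2l2 (Nrf2), an activator of Hmox1 and of the ferritin genes, stood at 3696 to 3959 (Control) against 4299 to 4507 (Prmt1-null) normalized counts, a log2 difference of 0.21 (SE 0.0596, adjusted p = 0.114, edgeR). Bach2 stood at 11580 to 13070 (Control) against 9928 to 10920 (Prmt1-null), a log2 difference of −0.22 (SE 0.065, adjusted p = 0.124, edgeR), and its exons overlap Bach2os on the opposite strand. Mafg, a partner of both, had a log2 difference of 0.24 (SE 0.113, adjusted p = 0.371) and shares exon bases with Sirt7 on the same strand. None of the 3 overlapped between the groups, and none was past the threshold in edgeR.

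The 11 genes of heme synthesis had log2 differences from −0.16 to 0.22, 4 positive and 7 negative. The smallest p in this list belonged to Ppox (log2 difference 0.22, adjusted p = 0.514), Tmem14c (0.14, adjusted p = 0.648) and Clpx (−0.14, adjusted p = 0.657), all by edgeR. Ppox, which oxidizes protoporphyrinogen, has exons that overlap B4galt3 on the opposite strand. Tmem14c carries porphyrin across the inner mitochondrial membrane, and Clpx activates the first enzyme of the route. Alas2, the erythroid enzyme that holds the hairpin, stood at only 38.38 ± 32.2 (Control) against 33.87 ± 10.5 (Prmt1-null) normalized counts. Of 9 erythroid markers 8 were in the table, and they summed to 4.95 to 9.4 CPM in Control and 6.63 to 7.54 CPM in Prmt1-null iGBs, with Slc4a1, the red cell anion exchanger, at 0 counts throughout.

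**Figure D4:**
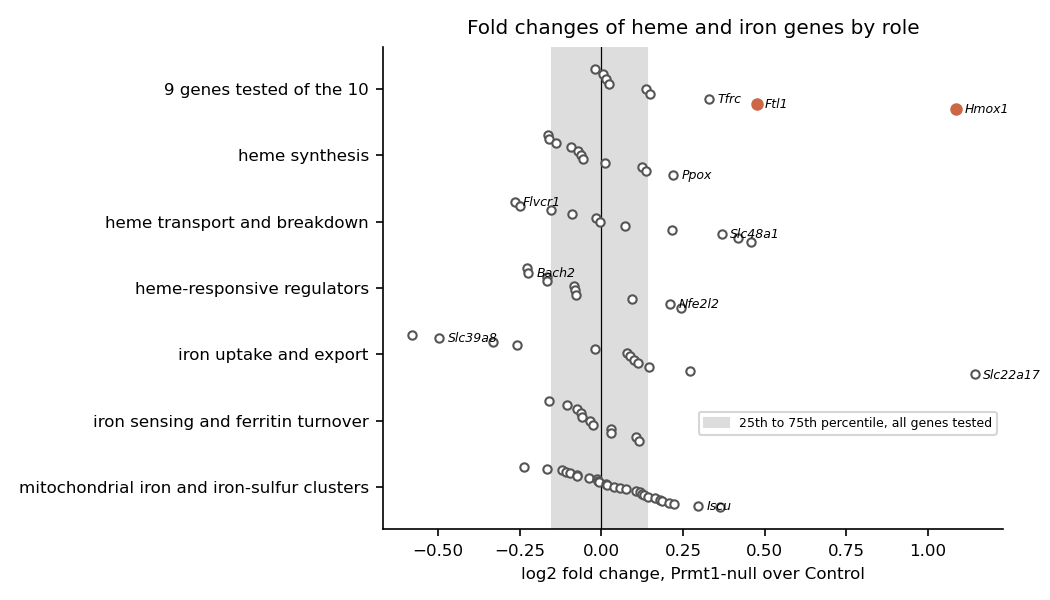
Log2 difference of Prmt1-null over Control (horizontal axis) for the 9 genes tested and for 6 lists of related genes (rows); filled points are past the threshold, and the grey band spans the 25th to 75th percentile of all genes tested. Hmox1 and Ftl1 are the filled points, at 1.08 and 0.48, and 0 of the related genes are filled.

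Of 12 tested genes of iron uptake and export, 7 had a positive and 5 a negative log2 difference. Slc39a8 (ZIP8), a metal importer, stood at 254.5 to 342.6 (Control) against 195.4 to 210.2 (Prmt1-null) normalized counts, a log2 difference of −0.50 (SE 0.176, adjusted p = 0.216, edgeR). Snx3, which helps the transferrin receptor recycle, had a log2 difference of 0.11 (adjusted p = 0.477). Slc22a17, a lipocalin receptor, had the widest difference, 1.14 (SE 0.678, adjusted p = 0.499, edgeR), on 6.611 to 21.26 normalized counts.

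The 11 genes of iron sensing and ferritin turnover lay within −0.16 and 0.11 on the log2 scale, 4 positive and 7 negative. Cul1, a scaffold of the ubiquitin ligase that removes IRP2, had a log2 difference of −0.10 (adjusted p = 0.503), and Zfp36, an mRNA decay factor, one of −0.16 (adjusted p = 0.521), both by edgeR. Of the 28 genes of mitochondrial iron and iron-sulfur clusters, 17 had a positive and 11 a negative log2 difference, with a median of 0.05. The smallest p were those of Hspa9 (0.18, adjusted p = 0.177), a mitochondrial chaperone, Iscu (0.30, adjusted p = 0.181), the scaffold on which clusters are built, and Ciao1 (0.16, adjusted p = 0.442), a cytosolic assembly factor, by edgeR. These 3 genes did not overlap between the groups.

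The hairpin search also allowed a look at other genes with a match. Outside the 10 genes, 13 genes tested held a match in a 5′ UTR, 8 with a positive and 5 with a negative log2 difference and a median of 0.09. Of these 13, 1, the ferritin copy Ftl1-ps1, was past the threshold in edgeR, where 1.18% of all genes were. Reads of Ftl1-ps1 may in part stem from Ftl1, which was picked with this comparison in view, so the call is not independent of the 10 genes. Of the 13, 4 had an unadjusted p under 0.05, where 13.5% of all genes had one. With a match in a 3′ UTR there were 35, 23 positive and 12 negative, with a median of 0.05. Of these 35, 0 were past the threshold in edgeR and in DESeq2, and 4 had an unadjusted p under 0.05.

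**Figure D5:**
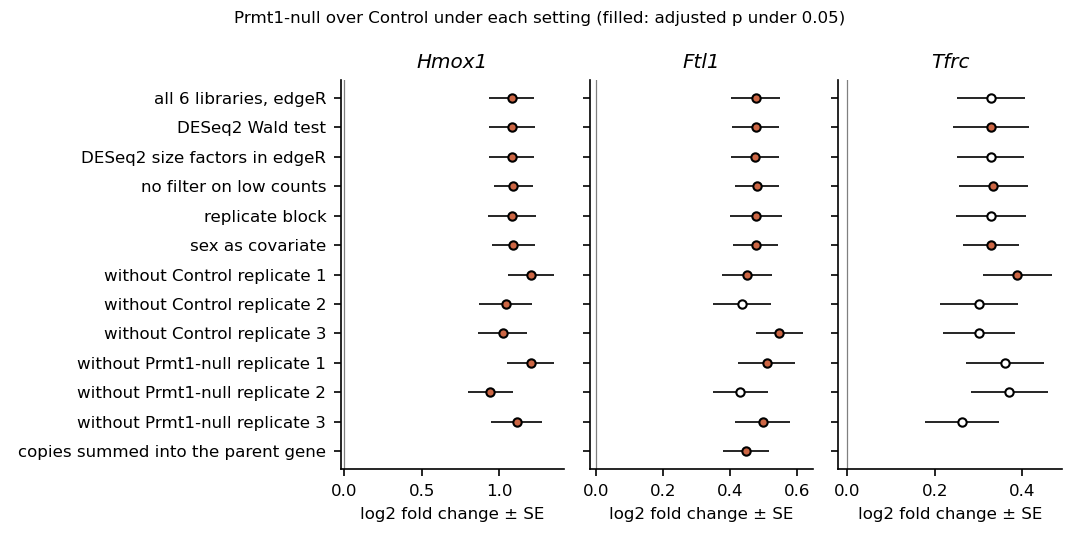
Log2 difference of Prmt1-null over Control ± SE (horizontal axes) for Hmox1, Ftl1 and Tfrc with all 6 libraries and under each other setting (rows); filled points have an adjusted p under 0.05. Hmox1 stays between 0.94 and 1.2 and filled throughout, Ftl1 between 0.43 and 0.55 with 2 open points, and Tfrc between 0.26 and 0.39 with 4 filled points.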

How the data were processed

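For the authors' table, Trimmomatic 0.32 removed adapters, STAR 2.3.0e aligned to mm10 and featureCounts 1.4.4 counted primary alignments to at most 2 places on Ensembl exons. The deposited table holds counts that were not normalized; the strand setting is not given in the sources used here. Groups, sexes and replicate numbers come from the labels, and the design gives 3 biological replicates per condition. The members and lists were chosen with earlier results of these data known.

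The 398 chromosome Y genes were left out, genes were filtered with filterByExpr (minimum count 10) and scaled by TMM, which left 18268 genes for the quasi-likelihood test of edgeR 4.0.16 (R 4.3.3) with Benjamini-Hochberg adjustment. DESeq2 1.42.0 was an alternative. A standard error is the size of the log2 difference over the square root of F. Libraries held 45343250 to 62774232 counts. Coordinates and lengths come from GENCODE M21. Named were the 10 genes, Prmt1, ferritin copies, and, in each related list, the genes past the threshold and the 3 with the smallest p (1 of these is not reported here); Hmox2, Alas2, Bola3 and marker genes were named after their values were seen.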

Additional observations from a re-analysis of the deposited data

How the results depend on the processing

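The genes past the threshold numbered 216 with all libraries, 709 with DESeq2's Wald test, 675 with no filter on low counts and 31 to 340 with a library left out (31 without Prmt1-null replicate 2). Of the 9 heme and iron genes tested, 2 passed, and 1 to 3 with a library left out, 1 without Control replicate 2 or Prmt1-null replicate 2. The 0 related genes past the threshold became 4 with DESeq2's Wald test, 3 with no filter, 2 with sex as a covariate and 0 to 2 with a library left out. Hmox1 passed in all 11 alternatives. With a library left out, the log2 fold changes that changed sign ranged from −0.051 to 0.0502 for Blvra, −0.0549 to 0.167 for Blvrb, −0.0524 to 0.0112 for Ireb2 and −0.0211 to 0.0419 for Aco1. The cause was not tested. The Fth1 to Ftl1 log2 ratio (Prmt1-null minus Control) was −0.34, and −0.31 with copies summed, an alternative chosen after seeing the data. Same-numbered libraries come from different mice, and the correlations of their deviations were −0.28, 0.20 and −0.32 for replicates 1, 2 and 3, so the numbers do not pair them. With the replicate number as a block, 151 genes, 2 heme and iron genes and 0 related genes passed. Male Control replicate 1 and male Prmt1-null replicate 3 deviated together (correlation 0.46). Slc40a1 lies near the smallest count taken as detected.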
